A study of Mus musculus with 6 samples.

Results

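Retnla, Retnlb and Retnlg, 3 resistin-like genes that lie side by side on mouse chromosome 16, were examined by ATAC-seq in bone marrow-derived macrophages (BMDMs). ATAC-seq uses a transposase that cuts accessible DNA and tags it for sequencing, so reads pile up where chromatin is open. The locus was taken as a window of 200 kb on chromosome 16 in the mm9 build, and its members were all sites of the deposited site table inside it. There were 59 such sites of 578591 in the table, together with the peaks called in the window in each of the 6 libraries. The deposited files give positions and no gene names.

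All 6 libraries came from bone marrow of wild-type mice, C57BL/6 by the strain label and C57BL/6J by the growth protocol, differentiated in medium conditioned by L929 cells, a fibroblast line that secretes MCSF, so the control cells had also been grown with MCSF. All library titles carry the word Petri, while the study's legend for its ATAC-seq figure names tissue culture plates, so the culture surface is not settled here. Each of the 6 groups had 1 library. Untreated and DMSO received no IL-4. IL-4, DMSO + IL-4, MCSF + IL-4 (MCSF at 100 ng/ml) and LatA + IL-4 (latrunculin A at 1 µM) received IL-4 at 20 ng/ml for 24 h. The labels do not state how long DMSO, latrunculin A or MCSF was present. Latrunculin A keeps actin monomers from polymerizing, DMSO is its solvent, and MCSF, or CSF1, is the growth factor of macrophages. No group had a replicate, so each ratio below compares 2 libraries, and its 95% interval (exact, Clopper-Pearson) covers counting error only.

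Resistin-like molecules are small, secreted, cysteine-rich proteins. Retnla encodes RELMα, also called FIZZ1, a classic product of macrophages that IL-4 or IL-13 has activated through the transcription factor STAT6, with C/EBP factors acting at its promoter. Retnlb encodes RELMβ, best known from goblet cells of the gut, and Retnlg encodes RELMγ, best known from bone marrow and neutrophils. In RefSeq, on build GRCm38.p6, the genes follow each other from lower to higher coordinates in the order Trat1, Gm8670, Retnlb, Retnla, Retnlg and Dzip3.

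Promoters are shown because IL-4 acts on Retnla through a STAT6 site near the gene's start, and because Retnlg holds a counterpart of that stretch at another distance from its annotated start. RefSeq promoter sequence on build GRCm38.p6 was found for 2 of the 3 genes, Retnla (chr16:48842359-48842608) and Retnlg (chr16:48872358-48872607). Both are on the plus strand and are given as the 250 bases that end just before the gene's start. That build differs from mm9, so these positions were not set against the sites below. Capitals mark matches to a STAT6-type motif (TTC and GAA with 4 bases between) and to a C/EBP-type motif (TTGCNNAA), searched on both strands.
Retnla: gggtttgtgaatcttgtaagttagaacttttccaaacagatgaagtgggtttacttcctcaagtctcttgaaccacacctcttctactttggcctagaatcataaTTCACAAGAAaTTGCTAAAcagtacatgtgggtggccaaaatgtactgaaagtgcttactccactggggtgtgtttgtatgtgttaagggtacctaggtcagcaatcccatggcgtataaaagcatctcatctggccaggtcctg
Retnlg: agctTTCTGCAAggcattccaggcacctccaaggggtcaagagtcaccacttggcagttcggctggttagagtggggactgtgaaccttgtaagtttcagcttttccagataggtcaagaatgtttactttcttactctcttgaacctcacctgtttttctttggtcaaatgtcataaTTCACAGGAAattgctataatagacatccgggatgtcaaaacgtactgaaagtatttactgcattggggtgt

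The Retnla promoter held the STAT6-type match TTCACAAGAA at −145 to −136 from the start, followed after 1 base by the C/EBP-type match TTGCTAAA at −134 to −127. Retnlg held a STAT6-type match as well, TTCACAGGAA, at −72 to −63 from its annotated start. The promoters aligned over 178 columns, of which 138 (77.5%) were identical. In that alignment the STAT6-type matches of both genes lay opposite each other, so their distances differ with the annotated starts, and the bases of Retnlg opposite the C/EBP-type match of Retnla read TTGCTATAA, which is no match. The C/EBP-type match of Retnlg, TTCTGCAA on the minus strand, lay at −246 to −239. Among 32851 RefSeq promoters of this length, 5.85% held a STAT6-type match and 9.56% a C/EBP-type match. Retnla further held a PU.1-type match (GAGGAA) on the minus strand at −196 to −191, as did 23.2% of promoters, and Retnlg an NFY-type match (CCAAT) on the minus strand at −10 to −6, as did 33.9%. Neither promoter held the STAT-type motif with 3 bases between TTC and GAA (7.02% of promoters did) or the AP-1-type motif TGANTCA (6.75%). A match describes letters and does not show that a factor binds.

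The question at this locus was which sites gained accessibility with IL-4 and what became of that gain with latrunculin A or with MCSF. The window's sites were 150 to 1076 bp wide (median 327 bp) and covered 20835 bp, or 10.4% of it. Values are given as reads, recovered from the deposited signal, and as normalized reads, which are reads scaled to a common library size. The mean over the 6 libraries ran from 2.27 to 98.2 normalized reads per site (median 12.7). Sites that averaged 20 normalized reads or more were compared, which kept 18 of the 59 (30.5%) against 22.8% of the whole table. The other 41 sites, at most 33 reads in any library, entered sums, peak counts and the map of the window, and no count of sites past a threshold unless it is said to be without a filter. Distances below are between site centres and are taken from the site that ends at 48845783.

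That site is 911 bp wide and is called the downstream site here, because in the study's mm9 browser view Retnla reads toward higher coordinates and ends just before it. The same view puts the beginning of Retnla inside the site at 48842417 to 48842906, called the Retnla start site here, which is 490 bp wide and centred 2.67 kb toward lower coordinates. The sites are 1966 bp apart. Which exon, intron or untranslated part of Retnla a site overlaps was not analysed, and no site was tied to Retnlb or Retnlg, since no mm9 annotation was used.

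The Retnla start site was nearly without reads in the absence of IL-4. It had 3 reads each in Untreated and DMSO, 97 in IL-4, 80 in DMSO + IL-4, 19 in MCSF + IL-4 and 56 in LatA + IL-4. In normalized reads these were 2.22, 2.70, 95.2, 99.0, 22.3 and 59.1, in the order Untreated, DMSO, IL-4, DMSO + IL-4, MCSF + IL-4, LatA + IL-4, which is kept for all lists of 6 values below. All 4 libraries with IL-4 thus stood above both without it, with MCSF + IL-4 the lowest of the 4. The ratio of IL-4 to Untreated was 42.9 (14.2 to 211.6), and that of DMSO + IL-4 to DMSO was 36.6 (12.1 to 181.5), both resting on 3 reads in the lower library. DMSO by itself left the site within counting error, at a ratio of 1.22 (0.163 to 9.09) to Untreated and, with IL-4 in both libraries, 1.04 (0.764 to 1.41).

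With latrunculin A the start site kept more than with MCSF. LatA + IL-4 stood at 0.596 (0.416 to 0.850) of DMSO + IL-4, and MCSF + IL-4 at 0.234 (0.135 to 0.385) of IL-4, and these counting intervals do not overlap. Both remained above the libraries without IL-4, at ratios of 21.9 (7.11 to 109.2) to DMSO for LatA + IL-4 and 10.0 (2.95 to 52.9) to Untreated for MCSF + IL-4. In bulk libraries, fewer cells with an open site and less opening per cell cannot be told apart.

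The downstream site was open to a low level without IL-4 and also rose with it. It had 26 reads in Untreated, 17 in DMSO, 150 in IL-4, 129 in DMSO + IL-4, 29 in MCSF + IL-4 and 36 in LatA + IL-4, or 19.2, 15.3, 147.2, 159.7, 34.0 and 38.0 normalized reads. The libraries IL-4 and DMSO + IL-4 were far above the other 4, and those with latrunculin A or MCSF lay close together. The ratio of IL-4 to Untreated was 7.65 (5.02 to 12.1) and that of DMSO + IL-4 to DMSO was 10.4 (6.27 to 18.5). LatA + IL-4 stood at 0.238 (0.160 to 0.346) of DMSO + IL-4, and MCSF + IL-4 at 0.231 (0.149 to 0.345) of IL-4. Against the libraries without IL-4, LatA + IL-4 was 2.48 times DMSO (1.36 to 4.71), and MCSF + IL-4 was 1.77 times Untreated (1.00 to 3.12). The ratios of the treatments and of IL-4 share a library, DMSO + IL-4 for latrunculin A and IL-4 for MCSF, so a high value in it raises one and lowers the other.

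**Figure D1:**
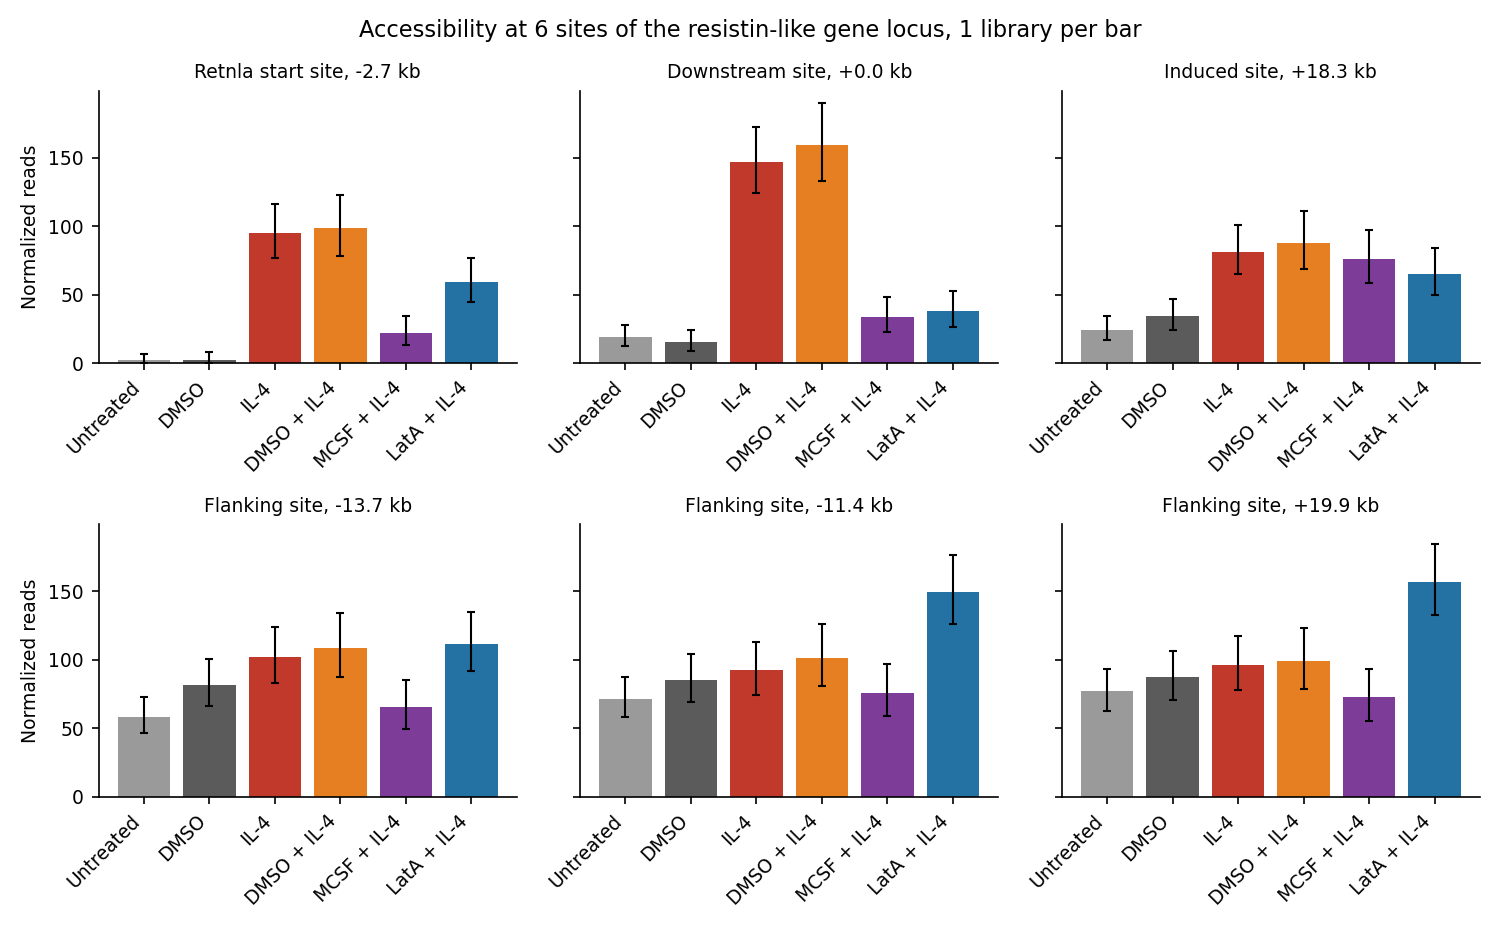
Normalized reads (vertical axis) in the 6 libraries (horizontal axis, 1 bar each) at 6 sites of the locus, each titled with its distance from the downstream site in kb, with exact 95% counting intervals as error bars. MCSF + IL-4 has 22.3 normalized reads at the start site and 34.0 at the downstream site but 76.1 at the site at +18.3 kb, and LatA + IL-4 has 59.1 at the start site and 38.0 at the downstream site.

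Both sites were then compared with each other inside each library, where library size drops out. The start site had 0.115 reads for each read of the downstream site in Untreated, 0.176 in DMSO, 0.647 in IL-4, 0.620 in DMSO + IL-4 and 0.655 in MCSF + IL-4. In LatA + IL-4 it had 1.56 (1.00 to 2.43), the highest of the 6 libraries. The change in this ratio between libraries, as an odds ratio, was 2.50 with latrunculin A (1.47 to 4.29) and 1.01 with MCSF (0.507 to 1.99), each against its own IL-4 control. The downstream site was thus lower with latrunculin A by more than the start site was, beyond counting error, and for MCSF the interval spread about evenly to both sides of 1. For IL-4 the odds ratio was 5.58 without vehicle (1.64 to 29.6) and 3.50 with DMSO (0.967 to 19.2), the start site rising more in both and the second interval reaching 1. Per kb of site, the start site had 1.20 times the reads of the downstream site in IL-4, 1.15 times in DMSO + IL-4, 1.22 times in MCSF + IL-4 and 2.89 times in LatA + IL-4, against 0.214 in Untreated and 0.328 in DMSO.

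Peaks had been called in each library on its own. At the start site a peak was called in each of the 4 libraries with IL-4 and in neither library without it. The fold enrichment over local background, the authors' own value, was 6.02 in IL-4, 6.85 in DMSO + IL-4, 5.73 in MCSF + IL-4 and 6.88 in LatA + IL-4, with −log10 q of 35.4, 36.4, 11.6 and 22.1. Each fold is relative to the local background of its own library and does not compare opening between libraries. Normalized reads there were 95.2, 99.0, 22.3 and 59.1 in the same order. The highest point of the start-site peak fell between 48842531 and 48842607, within 76 bp over the 4 libraries. At the downstream site a peak was called in IL-4 (fold 5.59, −log10 q 31.5), DMSO + IL-4 (fold 6.76, −log10 q 34.6) and MCSF + IL-4 (fold 3.53, −log10 q 4.09), and none in Untreated, DMSO or LatA + IL-4. At a threshold of −log10 q of at least 5 the MCSF + IL-4 peak would drop out too, so that library and LatA + IL-4 would then not differ in peak calls there. The summits in IL-4 and DMSO + IL-4 lay at 48845053 and 48845044, and that of the weaker MCSF + IL-4 peak lay at 48845312. A missing peak means that the caller's threshold was not reached, and reads were present there in every library.

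**Figure D2:**
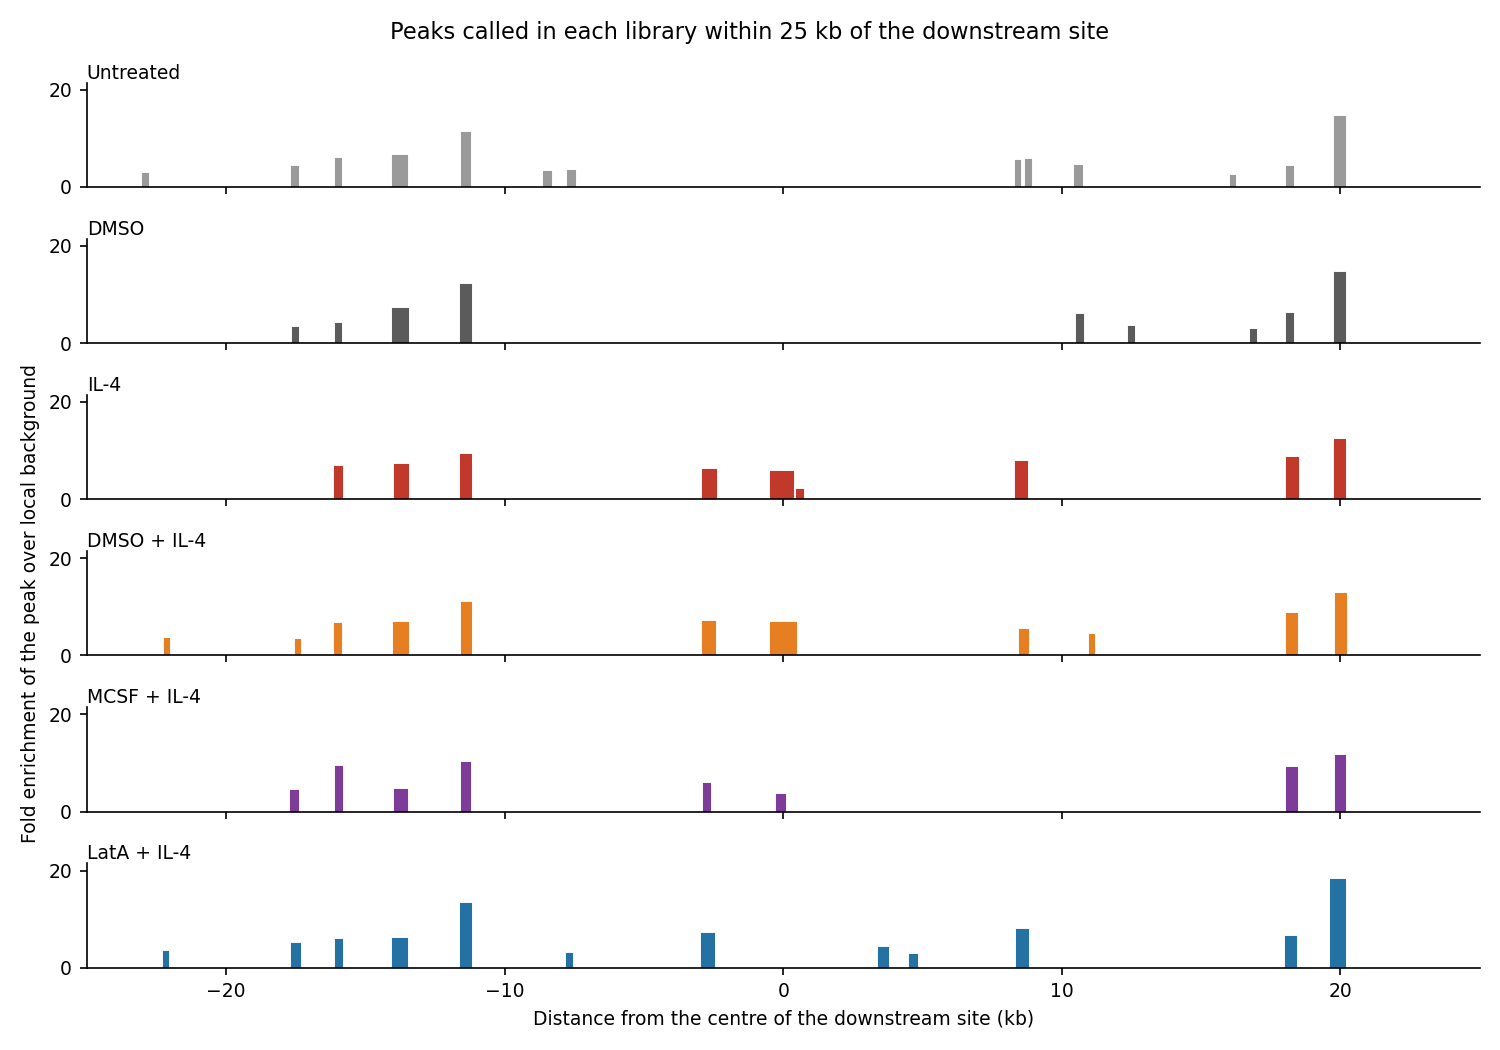
Peaks called in each of the 6 libraries (1 panel each) within 25 kb of the downstream site, drawn as bars over their own width against distance from its centre in kb (horizontal axis), with fold enrichment over local background as the height (vertical axis). The start site, at −2.67 kb, has a peak in the 4 libraries with IL-4 only, and the downstream site, at 0, has peaks in IL-4, DMSO + IL-4 and MCSF + IL-4. Heights are relative to the local background of each library and do not compare opening between libraries.

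Another site that rose with IL-4 lay 18.3 kb toward higher coordinates, the side on which Retnlg follows in gene order, at 48863384 to 48863791. It had 33 reads in Untreated, 38 in DMSO, 83 in IL-4, 71 in DMSO + IL-4, 65 in MCSF + IL-4 and 62 in LatA + IL-4, or 24.4, 34.2, 81.5, 87.9, 76.1 and 65.4 normalized reads. All 4 libraries with IL-4 were above both without it, and the treated libraries lay closer to their controls than at the start and downstream sites with MCSF, or at the downstream site with latrunculin A. The ratio to the library without IL-4 was 3.34 (2.20 to 5.16) and, with DMSO, 2.57 (1.71 to 3.92). LatA + IL-4 stood at 0.744 (0.520 to 1.06) of DMSO + IL-4, and MCSF + IL-4 at 0.934 (0.665 to 1.31) of IL-4, both intervals including 1. Over all sites that averaged 50 normalized reads or more, the median log2 ratio was 0.53 with latrunculin A and 0.54 with MCSF, and with this trend with read number removed the site stood at −0.95 and −0.61, past 1.5-fold lower in both. Set against this site, the odds ratio with MCSF was 0.251 (0.131 to 0.465) for the start site and 0.248 (0.142 to 0.424) for the downstream site. With latrunculin A it was 0.321 (0.187 to 0.544) for the downstream site but 0.802 (0.481 to 1.34) for the start site. A peak was called at the +18.3 kb site in all 6 libraries, with summits within 65 bp.

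Smaller rises were seen at a pair of weaker sites that passed 1.5-fold in both IL-4 comparisons. The site at 48829236 to 48829521, 15.9 kb toward lower coordinates, had 39, 25, 57, 40, 44 and 48 reads. Its ratios with IL-4 were 1.94 (1.27 to 2.99) and 2.20 (1.30 to 3.78), and it stood at 1.02 with latrunculin A and 0.921 with MCSF. At 48888073 to 48888768, 43.1 kb toward higher coordinates, the reads were 34, 24, 41, 31, 24 and 37, with ratios for IL-4 of 1.60 (0.990 to 2.60) and 1.78 (1.01 to 3.16). The intervals of the last site reach or nearly reach 1.

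The other 4 sites that averaged 50 normalized reads or more had a peak in every library. The site at 48831323 to 48831877, 13.7 kb toward lower coordinates, had 79, 91, 104, 88, 56 and 106 reads. It was higher in IL-4 than in Untreated, at 1.75 (1.29 to 2.37), stood at 1.33 (0.980 to 1.80) with DMSO in both libraries, and was lower with MCSF, at 0.643 (0.456 to 0.898), which left it at 1.12 (0.782 to 1.60) of Untreated. The site at 48833764 to 48834123, 11.4 kb toward lower coordinates, had 97, 95, 94, 82, 65 and 142 reads, and the site at 48864997 to 48865511, 19.9 kb toward higher coordinates, had 104, 97, 98, 80, 62 and 149. Both were highest in LatA + IL-4, at ratios of 1.48 (1.12 to 1.96) and 1.59 (1.20 to 2.11) to DMSO + IL-4. In log2 these ratios were 0.56 and 0.66, near the median of 0.53 that sites of such strength had over the whole table. The last of the 4, at 48786347 to 48786869, had 62, 43, 61, 55, 72 and 90 reads. Its ratio between the DMSO libraries with and without IL-4 was 1.76 (1.16 to 2.68), and that of IL-4 to Untreated was 1.31 (0.901 to 1.89). The nearest site beyond the downstream site, at 48845816 to 48846026 and only 32 bp from its end, had 8, 4, 22, 8, 8 and 2 reads and was too weak to compare.

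**Figure D3:**
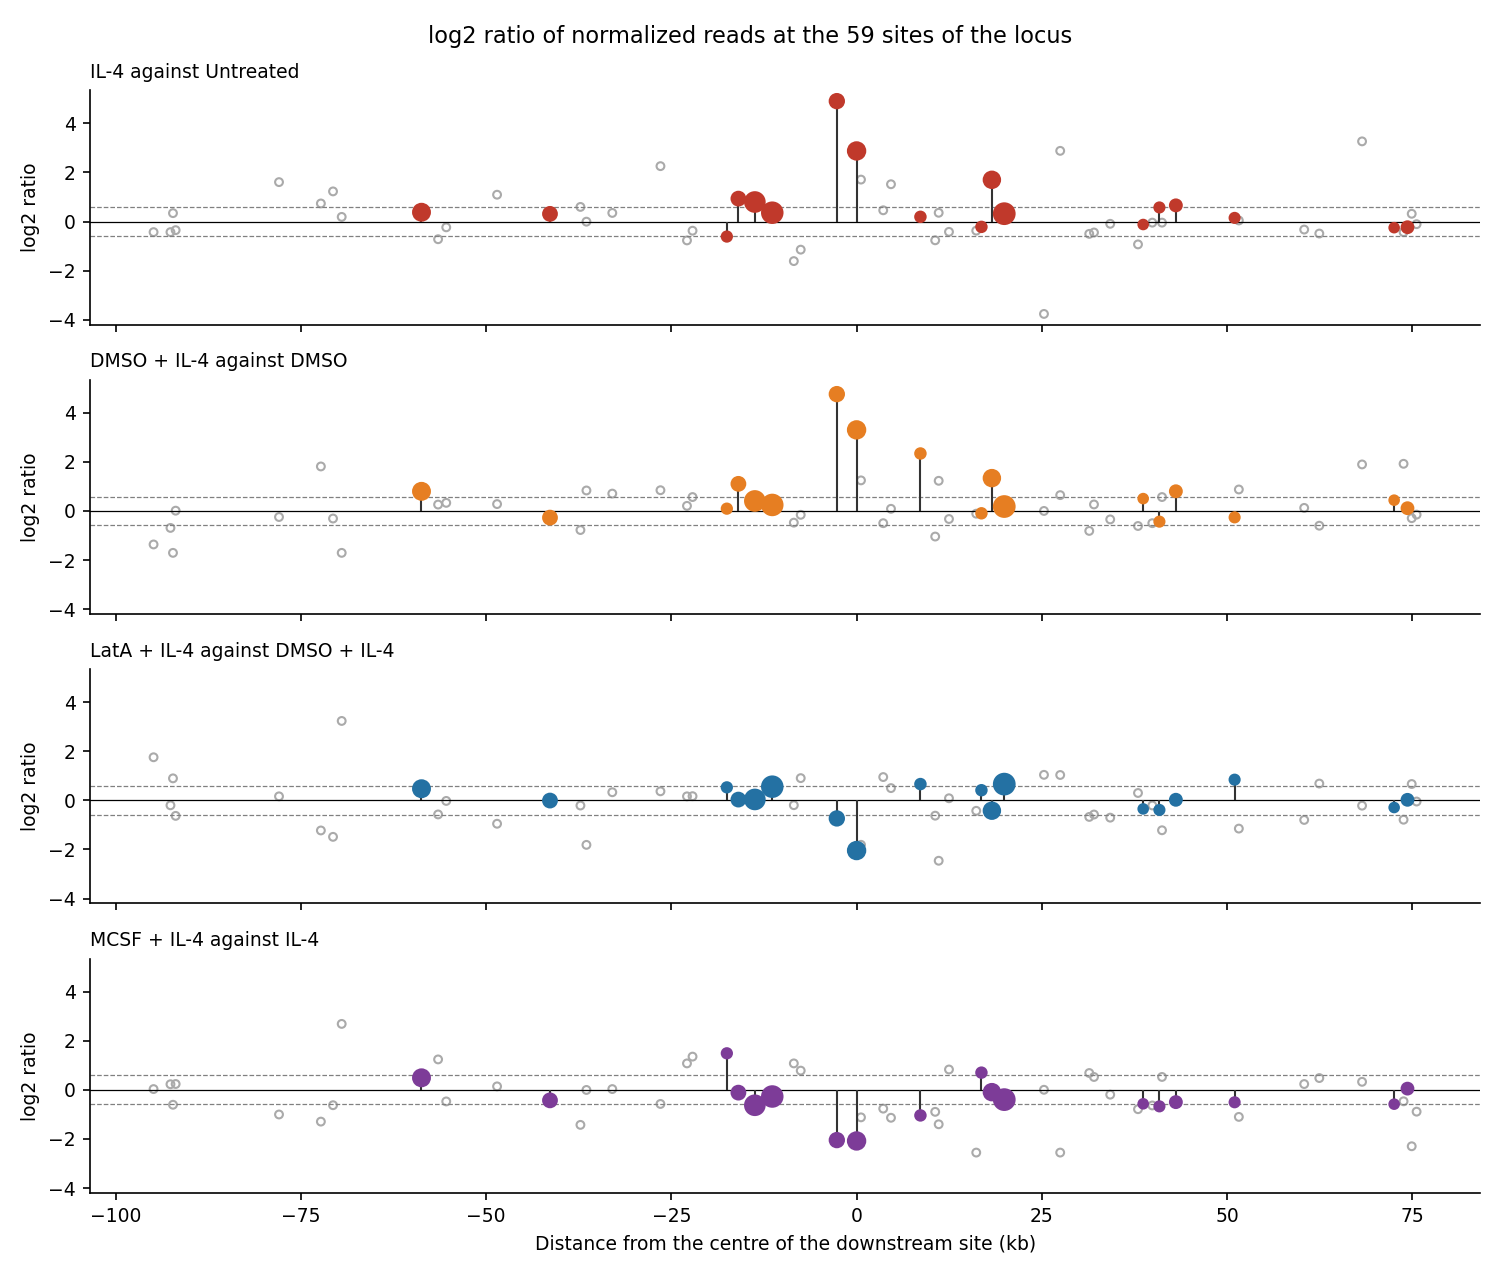
log2 ratio of normalized reads (vertical axis) at the 59 sites of the window against distance from the centre of the downstream site in kb (horizontal axis), 1 panel for each of 4 comparisons, with filled dots for the 18 compared sites (larger with more reads), open circles for the 41 weaker ones and dashed lines at 1.5-fold. The downstream site, at 0, stands at 2.87 and 3.30 in the IL-4 panels and at −2.04 and −2.08 in those for latrunculin A and MCSF.

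Over the window, counts of sites past 1.5-fold are read against the share of all 132057 tested sites past it in the same comparison. Without vehicle, 6 of 18 sites were higher with IL-4 (20.8% of all sites) and 1 was lower (8.88%). With DMSO, 7 of 18 were higher (16.6%) and 0 lower (12.8%). Both IL-4 comparisons, which share no library, called higher the start and downstream sites, the +18.3 kb site and the pair of weaker sites. The start and downstream sites were under 20 normalized reads in Untreated and DMSO and were compared only because of their reads with IL-4, so their part in these counts is not independent of the filter. Without them, 4 sites were higher without vehicle and 5 with DMSO. The median log2 ratio of the 18 was 0.34 without vehicle and 0.42 with DMSO, against 0.10 and 0.01 over all tested sites, and 0.31 and 0.33 with the start and downstream sites left out.

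With latrunculin A, 3 of 18 sites were higher (30.1% of all sites) and 2 were lower (15.7%), the 2 being the start and downstream sites. With MCSF, 2 were higher (29.2%) and 6 lower (14.9%), and these 6 included the start and downstream sites. Without those sites, latrunculin A had 0 lower and MCSF 4. With total reads outside the largest sites as the scale, MCSF had 11 lower sites (23.4%) and 1 higher site (19.3%), and latrunculin A had 3 lower (23.2%) and 1 higher (19.9%). Over the 18 the log2 ratio had a median of −0.47 with MCSF and 0.03 with latrunculin A, against 0.16 and 0.20 over all tested sites. Without the start and downstream sites the medians were −0.42 and 0.03, so the lower level with MCSF was not confined to them. Between libraries that differ in vehicle, DMSO had 1 higher site (16.8%) and 1 lower site (7.24%) compared with Untreated. With IL-4 in both, 1 site was higher (11.2%) and 3 were lower (9.80%) with the vehicle.

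**Figure D4:**
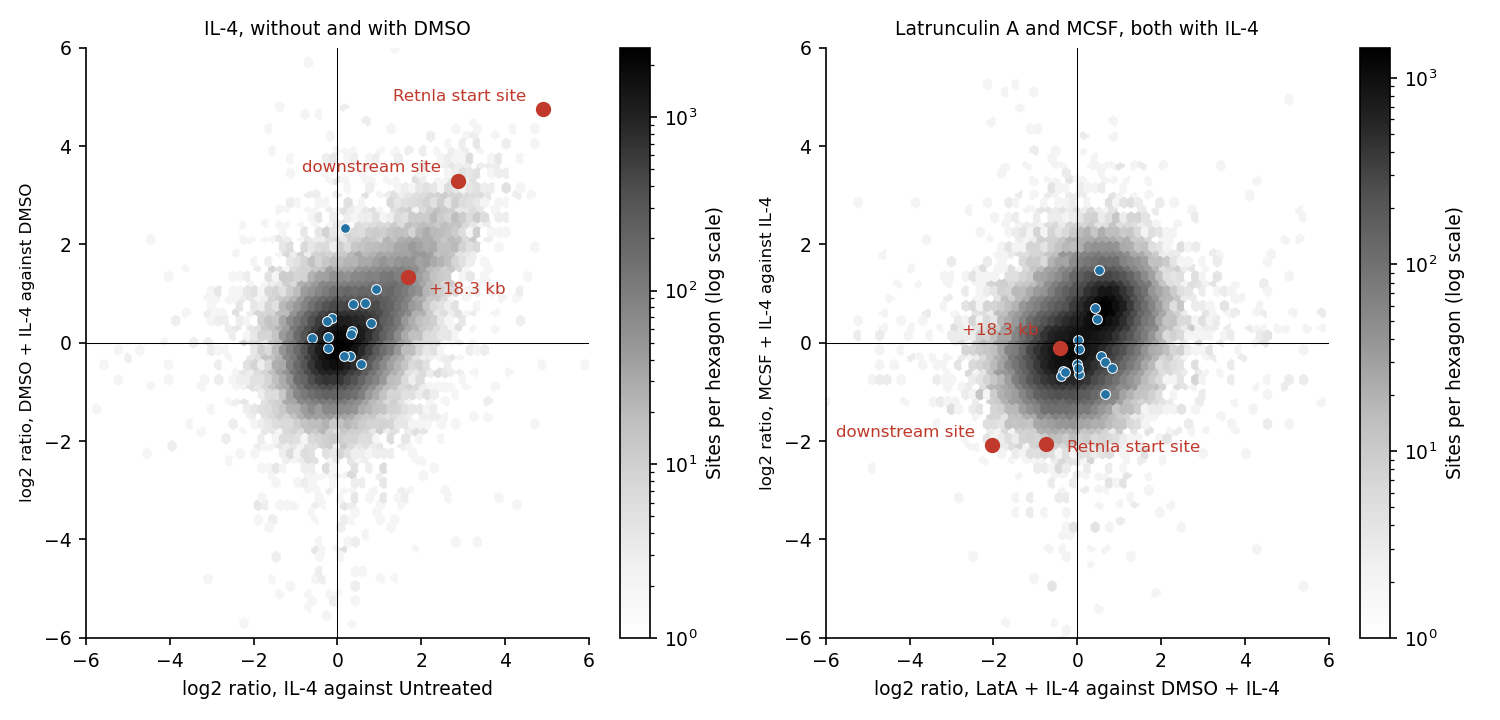
log2 ratios of all tested sites (gray hexagons, shaded by number of sites on a log scale) with the 18 tested sites of the window as dots, for IL-4 without and with DMSO (left) and for latrunculin A and MCSF in the presence of IL-4 (right), with sites beyond 6 in size not shown. The start and downstream sites lie at 4.90 and 4.76, and at 2.87 and 3.30, on the left, and at −0.74 and −2.05, and at −2.04 and −2.08, on the right.

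In the whole table the start and downstream sites ranked near the ends. By the ratio to Untreated the start site was number 43 of 132057 and by the ratio with DMSO number 83, and by the smaller of both log2 ratios it was number 4, and the top of 4719 tested sites on chromosome 16. The downstream site ranked 231 by that measure, and 15 on chromosome 16. By the larger of its log2 ratios for latrunculin A and MCSF, −2.04 and −2.08, the downstream site was number 105 from the bottom. From the bottom, the start site was number 740 for MCSF but number 14853, or 11.2% of all sites, for latrunculin A. The locus had been picked with such values known, so the ranks describe it only.

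Summed over all 59 sites, the locus held 1008 normalized reads in Untreated (955.6 to 1063), 1056 in DMSO (996.7 to 1119), 1471 in IL-4 (1398 to 1548), 1511 in DMSO + IL-4 (1428 to 1599), 1106 in MCSF + IL-4 (1036 to 1179) and 1457 in LatA + IL-4 (1382 to 1536). The start and downstream sites made up 2.13% of this sum in Untreated and 1.70% in DMSO, 16.5% in IL-4 and 17.1% in DMSO + IL-4, 5.08% in MCSF + IL-4 and 6.66% in LatA + IL-4. Without them the sums were 987, 1038, 1229, 1253, 1050 and 1360. The sum over the rest of the locus was thus also higher in IL-4 and DMSO + IL-4 than without IL-4, while the 41 weaker sites had a median log2 ratio of −0.094 for IL-4 and 0 with DMSO. The place of the treated libraries depended on the scale. Without the downstream site alone, 58 sites summed to 1419 in LatA + IL-4, against 1324 in IL-4 and 1352 in DMSO + IL-4, and to 1072 in MCSF + IL-4, against 989.2 in Untreated. With total reads outside the largest sites as the scale, the same 58 sites summed to 1263 in LatA + IL-4, under 1393 in IL-4 and 1378 in DMSO + IL-4, and to 977.6 in MCSF + IL-4, under 1101 in Untreated. Leaving out both the start and the downstream site, the 25 other sites toward lower coordinates, the side of Retnlb, summed to 434, 512, 578, 613, 544 and 713 normalized reads. The 32 sites toward higher coordinates, the side of Retnlg, summed to 553, 526, 651, 640, 506 and 648. On both sides IL-4 was above Untreated and DMSO + IL-4 above DMSO. In all, 32 peaks were called in the window in Untreated, 23 each in DMSO and IL-4, 28 in LatA + IL-4, 22 in DMSO + IL-4 and 21 in MCSF + IL-4. Of the 59 sites, 8 had a peak in all 6.

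A model across the 6 libraries, added after the values were seen, gave the only test at this locus. It was an edgeR quasi-likelihood fit over all 132057 sites with terms for vehicle, IL-4, latrunculin A and MCSF, which left 1 residual degree of freedom per site and assumed that lone libraries vary like the rest. Its spread comes only from how far IL-4 acted alike with and without DMSO, and not from replicate cultures. The terms for latrunculin A and MCSF rest on 1 library each, with no spread of their own, so no call is made from them. The locus was picked with its values known, and the start and downstream sites passed the filter only through their reads with IL-4. The p-values and the counts of higher sites for IL-4 below include these sites. Such values describe these libraries and are no independent support for a rise. For IL-4 the log2 change was 5.24 at the start site (adjusted p = 1.6e-06), 3.13 at the downstream site (adjusted p = 5.4e-06), 1.54 at the +18.3 kb site (adjusted p = 0.001599) and 1.03 at the site 15.9 kb toward lower coordinates (adjusted p = 0.04381). These 4 of 18 sites passed at an adjusted p under 0.05 in the higher direction (5.35% of all sites), and 0 of 18 in the lower (0.850%). At an unadjusted p under 0.05 there were 7 higher (12.3% of all sites) and 0 lower (4.63%). The site 43.1 kb toward higher coordinates did not pass, at 0.74 (adjusted p = 0.2378). For vehicle, 0 of 18 passed in the edgeR fit as higher (0.175%) and 0 as lower (0.134%), with 1 higher (5.30% of all sites) and 1 lower (2.03%) at an unadjusted p under 0.05.

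Sites with a pattern most like that of the downstream site were sought among 34838 sites that averaged 50 normalized reads or more, outside the window. Likeness was the Euclidean distance over the 6 libraries between log2 values centred on each site's mean. The nearest were at chromosome 12, 104846928 to 104848149 (distance 1.25), chromosome 2, 77133040 to 77134084 (1.32), and chromosome 1, 5061785 to 5063153 (1.45). In that order, their log2 ratios were −1.655, −1.104 and −1.51 with latrunculin A and −0.61, −0.94 and −0.62 with MCSF. The downstream site stood at −2.04 and −2.08, so even these sites were less lowered. On chromosome 16 the nearest of 1220 such sites was at 48670301 to 48670841 (1.90). It rose with IL-4 but was not past 1.5-fold lower with latrunculin A (−0.21) or MCSF (−0.37). The start site lay at a distance of 2.66 from the downstream site, and 6797 of 132056 tested sites were as near or nearer. By this measure the start site was thus not among the closest matches of the downstream site. Its 3 reads each in Untreated and DMSO enter this distance as values near the floor. No such rank was taken from the side of the start site.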

How the data were processed

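ATAC-seq libraries from BMDMs, 1 per group, were analysed from a site table and 6 peak lists. Per the study's methods, paired-end reads were trimmed with Cutadapt, aligned to mm9 with Bowtie2 (up to 10 alignments reported per read), freed of duplicates with Picard and counted per site with featureCounts. Reads from near-identical sequence, such as gene copies, could thus be placed at more than 1 site, and their part in these values was not tested. Versions, and how sites were joined, are not given in the sources used here.

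The signal in the deposited table is CPM that the authors scaled with TMM factors in edgeR, and whole reads (tolerance 0.01) were recovered for 100% of values. In the deposited peak lists, called with macs2 at q = 0.05 in each library, the authors give a fold enrichment, a −log10 q-value, a score and a summit offset per peak, and the score was not used further.

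Normalized reads are reads over the effective library size behind the deposited signal, times the geometric mean of these sizes. Depth was 12387332 to 19889902 reads in sites, so 20 normalized reads stand for 16.2 to 27.0 reads. Log2 ratios had 1 read added. Reads carry no molecular identifiers, so intervals cover counting error only. The intervals treat each read as an independent draw. Whether both mates of a pair were counted is not stated, and if so the intervals are too narrow. Main comparisons had no test because groups had 1 library. The added fit used edgeR 4.0.16 with Benjamini-Hochberg adjustment and coded latrunculin A with the DMSO vehicle, which its label does not state. Python 3.11.15 and scipy 1.17.1 were used, and the fit was tested on simulated data.

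The window ran from 48750000 to 48950000, and the downstream site starts at 48844873. Sites were named by rule, namely that site, its nearest neighbours, sites averaging 50 normalized reads or more, and sites that both IL-4 comparisons called in 1 direction. The window, members, lists and motifs were chosen with earlier results of these data known. Alternatives changed the scale, filter, fold threshold, added reads, trend with read number, controls, window and peak threshold. The build of the reference sequence differs from that of the sites, so sequence under the sites was not used here.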

Additional observations from a re-analysis of the deposited data

How the results depend on the processing

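No paired analysis was possible because each group holds 1 library, whose replicate number only names it, and no library could be left out because each is the only one of its group. The vehicle term of the added edgeR fit is no replicate block. Of 114 recomputed log2 ratios at the start, downstream and +18.3 kb sites, 111 stayed within the counting interval and none that had passed 1.5-fold changed direction. Near 0, the ratio between vehicle and no vehicle with IL-4 turned negative, at −0.0095 for the start site and −0.020 for the downstream site at the lowest. The downstream site ranged from 2.65 to 3.13 for IL-4, 3.02 to 3.36 with DMSO, −2.57 to −1.93 for latrunculin A and −2.60 to −1.97 for MCSF. The start site ranged from −0.97 to −0.68 for latrunculin A and −2.25 to −1.88 for MCSF, and its log2 ratio for IL-4 was 3.80 with 5 reads added, which weigh more where a library has 3 reads. Removing the trend with read number moved the +18.3 kb site to −0.95 for latrunculin A and −0.61 for MCSF.

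Counts of locus sites past 1.5-fold rest on few sites and moved with the filter and the threshold. Shares of all sites under the same setting stand in brackets, higher first. Without a filter, 59 sites gave 16 higher and 8 lower for IL-4 (24.6% and 22.4%), 17 and 9 with DMSO (24.9% and 24.1%), 12 and 16 for latrunculin A (27.5% and 28.0%), 10 and 23 with MCSF (27.5% and 27.1%), 11 and 7 for DMSO against Untreated (22.4% and 21.3%), and 10 and 13 for vehicle with IL-4 (22.7% and 22.6%). At a mean of at least 50, 6 sites gave 3 and 0 for IL-4 (21.9% and 5.40%), 3 and 0 with DMSO (13.6% and 10.1%), 1 and 1 for latrunculin A (44.7% and 6.04%), 0 and 2 with MCSF (46.0% and 5.65%), 0 and 0 for DMSO against Untreated (16.9% and 2.10%) and 0 and 0 for vehicle with IL-4 (5.89% and 3.27%). At 2-fold, 18 sites gave 3 and 0 for IL-4 (9.32% and 2.39%), 0 and 1 for latrunculin A (11.5% and 5.77%), 1 and 3 with MCSF (11.8% and 5.08%), 0 higher for DMSO against Untreated (3.88%) and 0 lower for vehicle with IL-4 (3.05%). Leaving out the start and downstream sites, an alternative added after the values were seen, left 0 lower for latrunculin A (15.7%), 4 lower with MCSF (14.9%), 4 higher for IL-4 (20.8%) and 5 higher with DMSO (16.6%). With 5 reads added, IL-4 had 0 lower (6.72%) and DMSO against Untreated 0 higher (12.6%).

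Total reads outside the largest sites, as a scale, moved the median of all sites by −0.20 with MCSF, by −0.19 with latrunculin A and by −0.10 between DMSO and Untreated, and total reads in sites moved the last by −0.12. With the former, 1 site was higher for latrunculin A (19.9%), 1 was higher and 11 lower for MCSF (19.3% and 23.4%), and the locus sums were 1122 in Untreated, 1009 in MCSF + IL-4 and 1297 in LatA + IL-4. For DMSO against Untreated there were 0 higher with total reads (10.8%), size factors (15.0%), the largest sites left out (11.3%) or the trend removed (10.1%), and 3 (10.7%), 2 (8.05%), 3 (10.3%) and 3 (10.7%) lower. At a −log10 q of at least 5, MCSF + IL-4 kept 11 peaks in the window and lost the one at the downstream site. The cause of these shifts was not tested. With 3 reads in the libraries without IL-4, the start site's ratio is known only to within its wide interval.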

Other observations

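Some sites of the window differed between libraries in other ways, and they were singled out after their values were seen. The site at 48853678 to 48854209, between the downstream and the +18.3 kb site, had 44 reads in Untreated, 4 in DMSO, 38 in IL-4, 18 in DMSO + IL-4, 15 in MCSF + IL-4 and 34 in LatA + IL-4. IL-4 stood at 1.15 (0.722 to 1.81) of Untreated. In the counts above the site was past 1.5-fold higher for IL-4 with DMSO and for latrunculin A. It was past 1.5-fold lower for MCSF, for DMSO against Untreated and for vehicle with IL-4. DMSO stood at 0.111 of Untreated there (0.0289 to 0.304), and the edgeR fit gave −1.65 for vehicle (adjusted p = 0.2678).

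Other sites of this kind were too weak to compare. The site at 48870482 to 48870758 had 17 reads in Untreated, 1 in LatA + IL-4 and 0 in the other 4 libraries. The site at 48913440 to 48913661 had 1 read in Untreated, 4 in DMSO, 16 in IL-4, 13 in DMSO + IL-4, 17 in MCSF + IL-4 and 13 in LatA + IL-4, so it was higher in all 4 libraries with IL-4. The site at 48872733 to 48872891 had 1, 4, 12, 5, 1 and 13 reads in the same order, and was as low in MCSF + IL-4 as in Untreated. These counts are small, and each rests on 1 library per group.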
